A study of Mus musculus with 36 samples.

Results

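The Zfp genes described here are the mouse zinc finger genes named only by a number (Zfp1, Zfp52, Zfp948 and so on), leaving out Zfp36, a CCCH-type mRNA decay factor. They were chosen by symbol and by detection: a probe was kept when its signal stood above negative control beads at a detection p-value under 0.01 on at least 4 of the 36 arrays. Of 258 such symbols on the array, 135 genes with 169 probes were kept and 123 genes were not, among 7585 genes tested in all. The probe used was detected on all 36 arrays for 72 of the 135 genes, on 18 or more for 116 and on fewer than 9 for 8. In at least 1 array of every group 112 genes were detected, and 0 were detected in only 1 group. Just inside the limit, with 4 arrays, lay the probes of Zfp428, Zfp617 and Zfp846, at mean log2 signals of 4.48, 4.52 and 4.49. Just outside it, with 3 arrays, lay those of Zfp457 and Zfp606, at 4.43 and 4.39, and second probes of Zfp326 and Zfp617, at 4.50 and 4.42. The choice used the signal, so the level of a kept gene is no finding, and a gene that is seen only after stimulation had to differ to be kept.

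Most of these genes encode C2H2 zinc finger proteins, in which a row of finger modules reads DNA. Many also carry a KRAB domain, which recruits TRIM28 and, through it, the methyltransferase SETDB1, heterochromatin proteins and deacetylases, and so silences the bound site, often a retroelement. Others bind GC-rich promoters, RNA or the ribosome, and a few act as SUMO or ubiquitin ligases. KRAB genes lie in dense clusters of copies, so a probe may read more than 1 gene, which was not tested here.

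The arrays, Illumina bead arrays of T cell RNA from mice, form 9 groups of 4. The groups were Malt1PM/- cells, whose only Malt1 allele carries a mutated paracaspase (PM), Malt1-/- cells, with no intact Malt1 allele (KO), and Malt1+/- cells, which have 1 intact and 1 null allele (het), each unstimulated (0 h) and after 1 and 4 h of stimulation. MALT1 links the antigen receptor to NF-kB as a scaffold and cleaves proteins as a protease. All groups are listed under B6.C-Tg(CMV-cre)1Cgn/J, a line with a Cre transgene under the broadly active CMV promoter. No group with 2 intact alleles is among them, and age and sex are not given in the sources used here. As T cells the labels describe bead-depleted total T cells or CD4+ selected cells, and as stimulus PMA with ionomycin or plate-bound antibodies to CD3 and CD28, without tying either to these arrays. The design text counts 3 biological replicates, whereas 4 are listed per group. Whether these are separate mice is not stated, so each p measures only the spread between these samples.

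Malt1 itself averaged log2 signals of 5.21, 5.61 and 6.10 in PM cells at 0, 1 and 4 h, 4.79, 4.66 and 5.82 in KO cells, and 6.08, 6.75 and 7.29 in het cells. The probe was detected on 2, 0 and 4 of 4 KO arrays at 0, 1 and 4 h and on all PM and het arrays, so KO cells at 4 h gave a Malt1 signal above background. Where its probe lies with respect to the deletion is not given, so it checks the labels only in part. Each array detected 7713 to 10291 of its 25697 probes, with means of 8903, 9680, 8962 and 8219 over replicates 1 to 4. Arrays of 1 group correlated at 0.934 to 0.989. Single genes stood apart mostly on arrays of replicate 4, and the counts over replicates 1 to 3 are given beside the counts over all arrays. The T cell genes Cd3d, Cd3e, Cd3g and Cd5 were detected on all 36 arrays, Cd8b1 likewise, Cd4 on 30 and Cd8a on 0.

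To show what lies before the start of genes that moved most at 4 h in het cells, 200 bases upstream of the annotated start are printed for Zfp52 and Zfp202, among the largest rises, and for Zfp810 and Zfp292, among the largest falls. The sequences are RefSeq's, build GRCm38.p6, read 5′ to 3′ on the gene's strand, with matches to the motifs named below in capitals. They lie at chr17:21535339-21535538 (plus strand) for Zfp52, chr9:40192116-40192315 (plus) for Zfp202, chr9:22307639-22307838 (minus) for Zfp810 and chr4:34882949-34883148 (minus) for Zfp292.
Zfp52: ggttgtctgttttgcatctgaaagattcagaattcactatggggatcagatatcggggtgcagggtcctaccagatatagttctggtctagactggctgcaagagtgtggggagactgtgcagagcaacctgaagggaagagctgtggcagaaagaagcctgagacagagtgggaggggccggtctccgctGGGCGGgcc
Zfp202: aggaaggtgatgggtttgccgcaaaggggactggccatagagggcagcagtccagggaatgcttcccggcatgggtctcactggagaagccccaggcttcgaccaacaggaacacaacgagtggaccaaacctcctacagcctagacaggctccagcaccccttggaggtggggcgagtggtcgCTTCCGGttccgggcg
Zfp810: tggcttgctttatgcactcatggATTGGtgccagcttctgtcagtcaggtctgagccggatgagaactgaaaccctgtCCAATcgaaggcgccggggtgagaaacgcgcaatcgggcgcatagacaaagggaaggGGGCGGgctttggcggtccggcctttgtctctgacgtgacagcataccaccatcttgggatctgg
Zfp292: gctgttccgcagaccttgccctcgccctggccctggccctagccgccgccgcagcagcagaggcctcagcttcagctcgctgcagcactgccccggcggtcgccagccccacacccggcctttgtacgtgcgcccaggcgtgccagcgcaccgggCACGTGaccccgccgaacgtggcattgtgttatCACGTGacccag
The capitals mark a GC box (GGGCGG) 9 bases before the start of Zfp52, and an Ets site (CCGGAAG, on the reverse strand) 16 bases before that of Zfp202. Before Zfp810 they mark a GC box at 65 bases and CCAAT boxes at 122 and, reversed, at 177 bases. Before Zfp292 they mark the E-box of MYC and MAX (CACGTG) at 45 and at 12 bases.

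Such upstream sequence was matched for 113 of the 135 genes and set beside all 27025 promoters of the table, both over the same 200 bases and on both strands. The 113 belong to genes that passed the detection filter, whereas the 27025 were not filtered by detection. The shares below were therefore not compared among detected genes alone. The Ets site, bound by a factor family that includes the GABP and ETS proteins of lymphocytes, was found in 14.2% of the 113 Zfp promoters and 6.45% of all promoters. The CCAAT box, bound by NF-Y, was found in 45.1% of Zfp promoters and 30% of all. The GC box, bound by SP1 and its relatives, was found in 45.1% and 31.3%. The E-box was found in 8.85% and 5.28%, and the TATA box (TATAAA) in 5.31% and 10.6%. The median GC content was 57.5% in Zfp promoters and 53% in all, and the shares were not adjusted for it. Of the motifs bound by factors that T cell stimulation activates, the AP-1 site (TGANTCA) was in 4.42% of Zfp promoters and 5.55% of all, and the NF-kB site in 2.65% and 3.05%. The CRE (TGACGTCA) was in 2.65% and 1.55%. GC box and EGR site (GCGTGGGCG) can overlap, and the EGR site was in 0 of the 113 Zfp promoters and 0.503% of all. These are counts of letters in a window, not of bound sites.

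After 1 h of stimulation the Zfp genes fell more often than they rose. In PM cells 31 of 135 fell and 17 rose, in KO cells 39 fell and 16 rose, and in het cells 36 fell and 19 rose (limma, Benjamini-Hochberg adjusted p under 0.05 over all genes). Of all 7585 genes, 13.1% fell and 10.3% rose in PM cells, 15.7% fell and 12.4% rose in KO cells, and 15.5% fell and 12.7% rose in het cells. The arrays at 1 h did not overlap those at 0 h for 40 Zfp genes in PM, 54 in KO and 55 in het cells, beside 20.7%, 26.5% and 27.5% of all genes. In all 23.4%, 28.1% and 28.2% of all genes passed, against 48, 55 and 55 of the Zfp genes. Among the Zfp genes the shares that fell were 23% in PM, 28.9% in KO and 26.7% in het cells, and the shares that rose were 12.6%, 11.9% and 14.1%. The fallen share among Zfp genes was above that of all genes under 11 of 11 settings in each genotype. In 1 of these, without a filter on dim probes, the same 135 filtered Zfp genes stood beside all genes unfiltered. There 6.21% of all genes fell in het cells, so that setting was no like comparison. With replicates 1 to 3 alone 27, 36 and 36 fell and 13, 16 and 16 rose in PM, KO and het cells. Of all genes 10.3%, 14.4% and 14.3% then fell, beside 20%, 26.7% and 26.7% of the Zfp genes, and 19.4%, 25.7% and 25.8% passed in either direction. The median Zfp gene changed by -0.20 in PM, -0.17 in KO and -0.21 in het cells (log2), beside -0.08, -0.07 and -0.07 for all genes. When arrays were instead brought to 1 median (median scaling), the median of all genes stood at -0.32, -0.32 and -0.18 and that of the Zfp genes at -0.43, -0.43 and -0.33, and 16, 27 and 18 Zfp genes fell while 2, 3 and 3 rose, beside 5.46%, 7.59% and 3.88% of all genes that fell and 2.45%, 2.78% and 3.96% that rose. Rises then made up 14.3% of the Zfp calls in het cells, beside 34.5% with quantile normalization.

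At 4 h fewer Zfp genes passed, relative to all genes, than at 1 h. In PM cells 28 Zfp genes fell and 17 rose, in KO cells 29 fell and 12 rose, and in het cells 33 fell and 24 rose. Of all genes, 27.1% fell and 24% rose in PM cells, 24% fell and 22.2% rose in KO cells, and 28.3% fell and 26.9% rose in het cells. In all 45 Zfp genes passed in PM, 41 in KO and 57 in het cells, beside 51.1%, 46.2% and 55.2% of all genes. Groups did not overlap for 41, 45 and 47 Zfp genes, beside 43.7%, 42.6% and 49.8% of all genes. As shares of the Zfp genes, 20.7% fell and 12.6% rose in PM, 21.5% and 8.89% in KO, and 24.4% and 17.8% in het cells. The share passing was below that of all genes in 10 of 11 settings in each genotype. The exception was the test without a filter on dim probes, where the Zfp genes stayed filtered and all genes did not. With replicates 1 to 3 alone 30, 26 and 28 fell and 19, 14 and 23 rose in PM, KO and het cells. Of all genes 26.4%, 22.8% and 28% then fell, beside 22.2%, 19.3% and 20.7% of the Zfp genes, and 50.3%, 43.4% and 54.4% passed in either direction. The median Zfp gene stood at -0.11 in PM, -0.10 in KO and -0.02 in het cells. With median scaling 18, 11 and 26 fell and 10, 7 and 10 rose, beside 18.5%, 14.3% and 21.6% of all genes that fell and 11.5%, 8.69% and 14% that rose, so that rises made up 27.8% of the Zfp calls in het cells, beside 42.1% with quantile normalization.

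Between 1 and 4 h more Zfp genes rose than fell. In PM cells 35 rose and 25 fell, in KO cells 32 rose and 22 fell, and in het cells 40 rose and 26 fell. Of all genes 23.6% rose and 24.2% fell in PM cells, 22.4% and 22.1% in KO cells, and 25.7% and 27% in het cells. As shares of the Zfp genes 25.9%, 23.7% and 29.6% rose in PM, KO and het cells, near the shares of all genes. The Zfp genes that fell, 18.5%, 16.3% and 19.3%, were fewer than among all genes. In all 60, 54 and 66 Zfp genes passed, beside 47.8%, 44.6% and 52.7% of all genes, and groups did not overlap for 41, 48 and 61, beside 39.1%, 38.1% and 46.8%. With median scaling 15, 15 and 16 rose and 3, 4 and 10 fell in PM, KO and het cells. Under that scaling 15.7%, 12.7% and 15.2% of all genes rose and 8.89%, 7.07% and 15.8% fell, so all genes too rose more often than they fell in PM and KO cells.

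**Figure D1:**
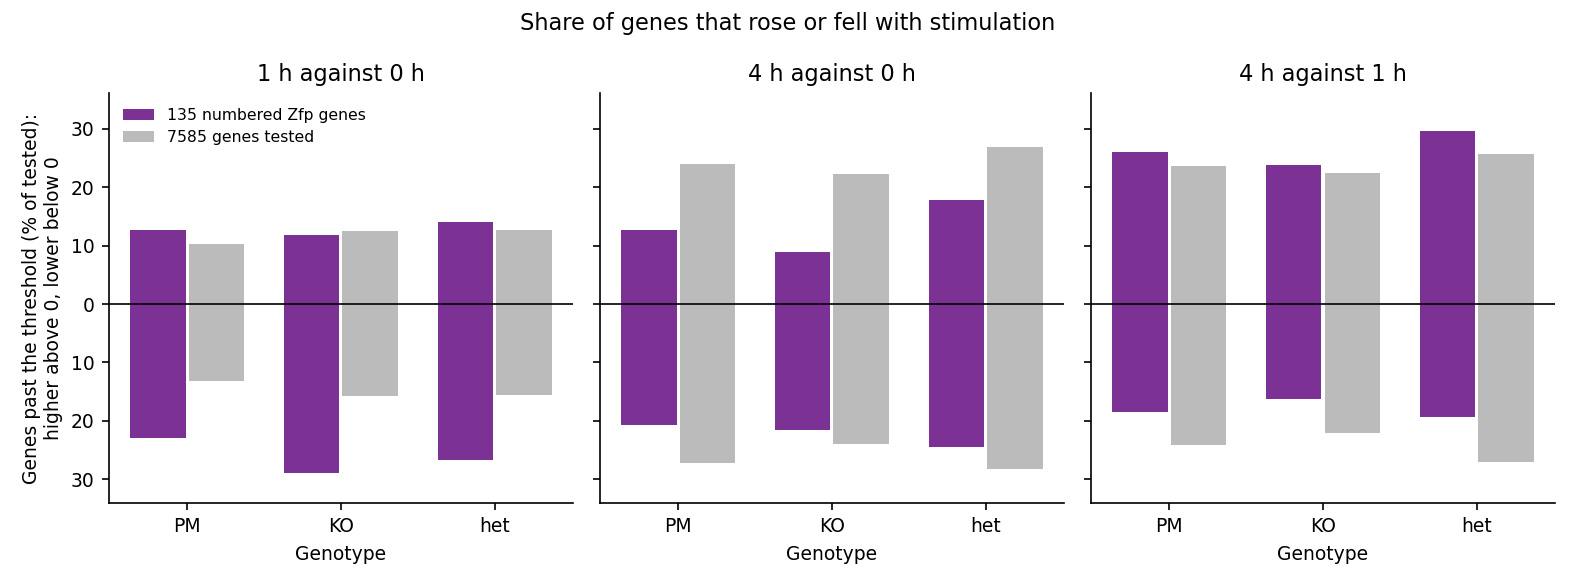
Percentage of the 135 numbered Zfp genes (purple) and of all 7585 genes tested (grey) past the threshold in PM, KO and het cells, with genes that rose drawn above 0 and genes that fell below it. At 1 h the purple bars reach further down than the grey ones (26.7% against 15.5% in het cells), and at 4 h they are shorter on both sides.

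In het cells 21 genes were lower than at 0 h at both times, 9 were higher at both, and 59 passed at neither. A further 10 were lower at 1 h and not past the threshold at 4 h. Another 5 were lower at 1 h and higher at 4 h than at 0 h: Zfp94, Zfp451, Zfp672, Zfp770 and Zfp930, named after their values were seen. Zfp212 went the other way, higher at 1 h and lower at 4 h. Across the 3 genotypes 25 genes fell and 13 rose at 1 h in every genotype, 20 fell and 11 rose at 4 h in every genotype, and 46 of 135 passed in none of the 6 comparisons. Both times of a genotype are set against the same 0 h arrays. No shares of all genes are given for these patterns, so the counts describe the Zfp genes alone.

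**Figure D2:**
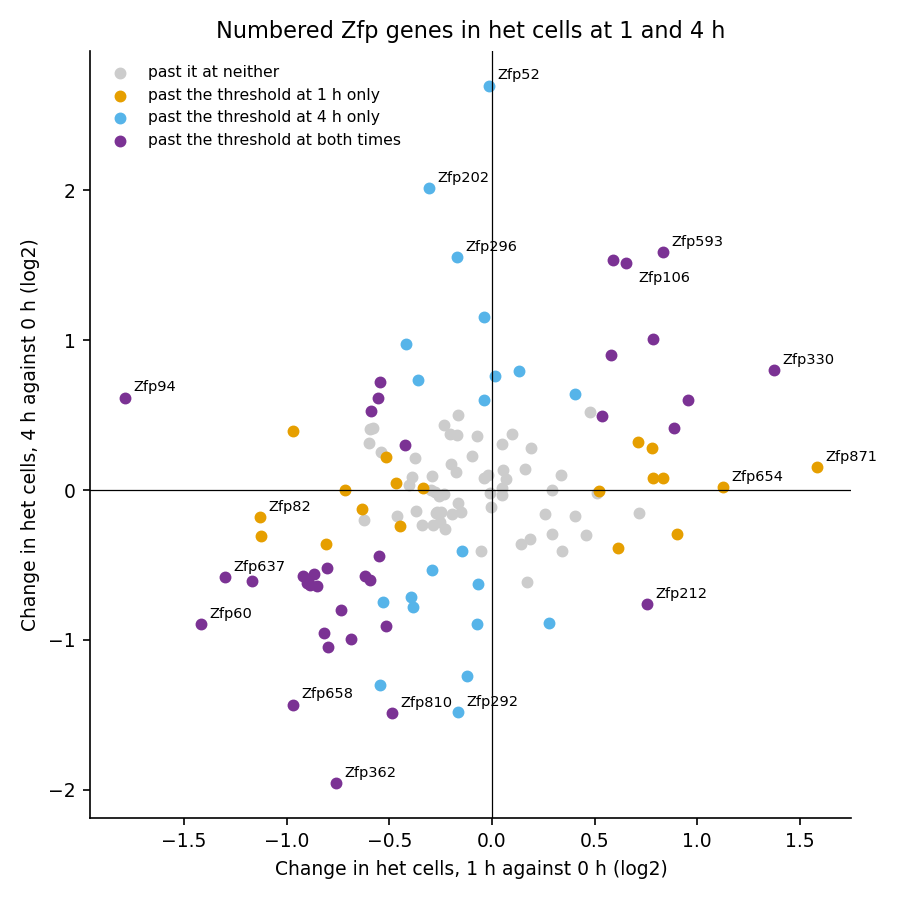
Change of each of the 135 Zfp genes in het cells at 1 h (horizontal) and at 4 h (vertical) against the same 4 unstimulated arrays, in log2, coloured by the times at which the gene passed the threshold. Zfp94 lies far left and above 0 (-1.79 and 0.62), Zfp212 right and below 0 (0.76 and -0.76), and Zfp52 near 0 at 1 h and at 2.70 at 4 h.

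Zfp94, a KRAB gene, dipped and returned. In het cells its log2 signal was 6.71, 6.47, 6.91 and 7.15 at 0 h, 4.75, 5.03, 4.97 and 5.34 at 1 h, and 7.44, 7.15, 7.34 and 7.78 at 4 h. No array at 1 h reached any array of the other times. The change at 1 h was -1.62 in PM, -2.07 in KO and -1.79 in het cells (SE 0.20 each, limma adjusted p at most 2.19e-07), a fall to 3.45-fold less in het cells. At 4 h het cells stood 0.62 above 0 h (adjusted p = 0.00879), while the 0.36 of PM cells and the 0.47 of KO cells did not pass (adjusted p = 0.134 and 0.0507). Zfp235, a KRAB gene in the same run of neighbouring Zfp genes, was not detected on any array at 1 h. It was at least 1.5-fold lower in PM, at least 1.38-fold in KO and at least 1.46-fold in het cells than at 0 h, the bound being set by the lowest signal above background.

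Further falls at 1 h were shared by the genotypes. Zfp60, also a KRAB gene, read 5.24, 5.68, 5.07 and 5.72 in het cells at 1 h, against 6.76, 6.87, 6.87 and 6.88 at 0 h. Its change was -1.13 in PM, -1.41 in KO and -1.42 in het cells (adjusted p at most 7.65e-07), and at 4 h it fell by 0.63, 0.86 and 0.89, with 5.98, 6.02, 5.96 and 5.86 on the het arrays. The groups of both times lay wholly below 0 h. Zfp637 fell by 1.12 in PM, 1.30 in KO and 1.30 in het cells on the log2 scale at 1 h. Its het arrays read 5.69, 6.33, 5.79 and 6.10 at 1 h, against 7.38, 7.25, 7.34 and 7.15 at 0 h, without overlap. Zfp82 fell by 1.28, 1.76 and 1.13 in PM, KO and het cells at 1 h, and at 4 h its -0.18 in het cells did not pass (adjusted p = 0.374). Zfp251 and Zfp623 fell by 1.17 and 1.13 in het cells at 1 h. With median scaling the call of Zfp251 was lost in PM and het cells.

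The rises at 1 h were led by Zfp871 and Zfp330. Zfp871 read 7.01, 6.29, 6.25 and 6.92 in het cells at 1 h, against 4.56, 5.12, 5.42 and 5.05 at 0 h. It rose by 1.41 in PM, 1.38 in KO and 1.58 in het cells (SE 0.22 each, adjusted p at most 1.75e-05), and at 4 h, with 4.87, 5.14, 5.27 and 5.47 on the het arrays, its arrays overlapped those of 0 h in each genotype. Zfp330, a nucleolar protein gene, was the brightest of the 135 genes over all arrays, at a mean log2 signal of 9.82. Its arrays read 10.42, 10.22, 10.51 and 10.77 in het cells at 1 h, against 8.70, 9.04, 9.36 and 9.32 at 0 h. It rose by 1.11 in PM, 1.25 in KO and 1.38 in het cells at 1 h and by 1.01, 1.01 and 0.80 at 4 h, and it is 1 of 4 genes that rose in all 6 comparisons, with Zfp106, Zfp281 and Zfp593. A second probe of Zfp330 changed by 0.91 at 1 h and 0.41 at 4 h in het cells, past the threshold at both times.

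Zfp654, Zfp747 and Zfp64 rose at 1 h in each genotype. In het cells the changes at 1 h were 1.12, 0.96 and 0.90, and those of 4 h against 1 h were -1.10 for Zfp654 (adjusted p = 8.57e-07), -1.19 for Zfp64 (adjusted p = 2.51e-08) and -0.36 for Zfp747, which did not pass (adjusted p = 0.0597). Zfp212, which encodes a KRAB protein, read 9.53, 9.88, 9.72 and 9.33 in het cells at 1 h, against 8.93, 9.16, 8.59 and 8.75 at 0 h, and 8.11, 8.23, 8.06 and 7.98 at 4 h. It rose by 0.83, 0.78 and 0.76 at 1 h in PM, KO and het cells, and at 4 h it fell by 0.50, 0.46 and 0.76 relative to 0 h, past the threshold in each. All 4 het arrays of 4 h lay below those of 0 h, and all 4 of 1 h above them. A second, dimmer probe gave 0.76 at 1 h and -0.44 at 4 h in het cells, and the 3 dimmest of its 5 probes did not pass. With median scaling Zfp654, Zfp747, Zfp64, Zfp593, Zfp326, Zfp91 and Zfp212 no longer passed at 1 h in het cells, while Zfp871 and Zfp330 did. In PM cells Zfp330, Zfp654 and Zfp747 no longer passed at 1 h under that scaling, and in KO cells Zfp747 and Zfp64. At 4 h the fall of Zfp212 in het cells did not pass either (adjusted p = 0.139).

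**Figure D3:**
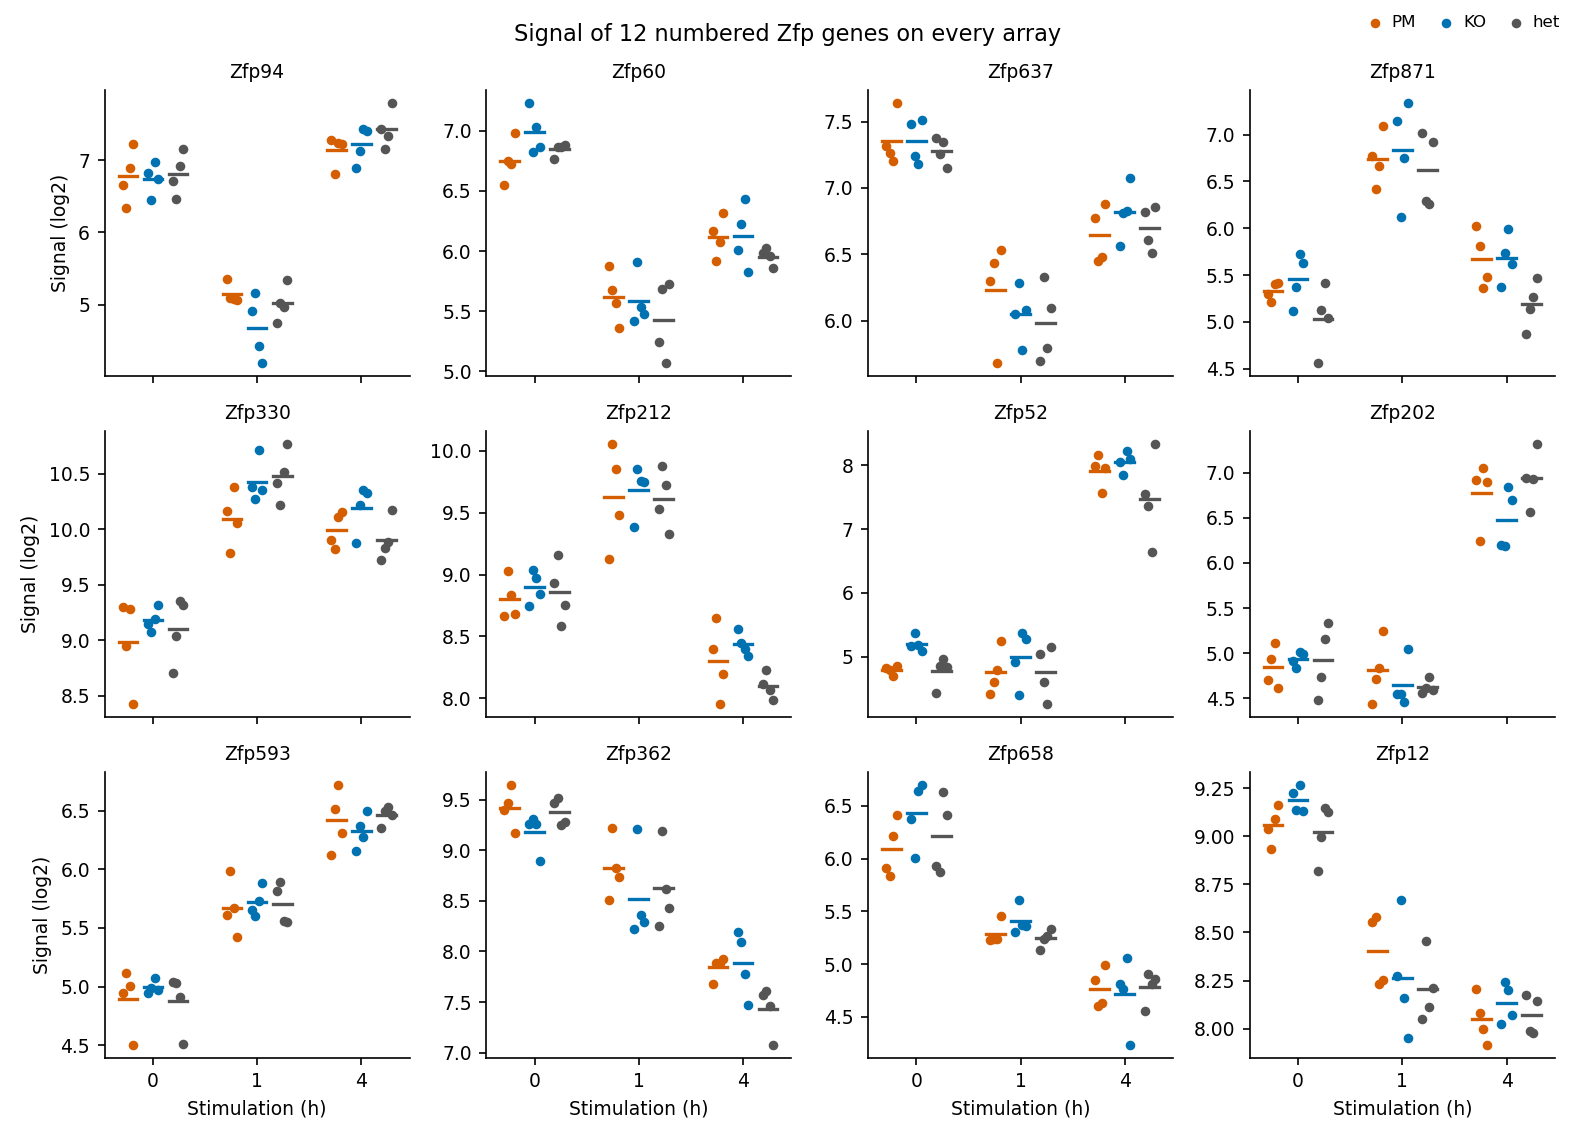
Log2 signal of 12 Zfp genes on every array at 0, 1 and 4 h in PM, KO and het cells. Each point is 1 array and each bar the mean of 4, and each panel has its own vertical scale, which does not start at 0. Zfp94, Zfp60 and Zfp637 are lowest at 1 h, Zfp871, Zfp330 and Zfp212 highest at 1 h, Zfp52, Zfp202 and Zfp593 highest at 4 h, and Zfp362 and Zfp658 lowest at 4 h.

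The largest rise at 4 h was that of Zfp52, a KRAB gene of the cluster whose neighbours include Zfp758, Zfp943 and Zfp948. At 0 h it was near background, detected on 1 of 4 PM arrays, 4 of 4 KO arrays and 2 of 4 het arrays. At 4 h it read 7.99, 8.16, 7.56 and 7.96 in PM cells, against 4.81, 4.78, 4.69 and 4.85 at 0 h. KO cells read 8.06, 7.85, 8.22 and 8.10 at 4 h, against 5.16, 5.37, 5.18 and 5.09 at 0 h. Het cells read 7.55, 7.36, 6.64 and 8.33 at 4 h, against 4.43, 4.85, 4.97 and 4.84 at 0 h. No array of 4 h overlapped those of 0 h. The rise was 3.13 in PM, 2.86 in KO and 2.70 in het cells (SE 0.24 each, adjusted p at most 3.50e-11), or 8.76-fold, 7.26-fold and 6.48-fold over signals that at 0 h lay near background and were in part undetected. At 1 h the changes lay between -0.21 and -0.01 and did not pass.

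In its run the 4 genes kept did not move together. Zfp948 rose at 4 h as well, from groups without a detected array, so that only bounds can be given: at least 1.39-fold in PM, at least 1.79-fold in KO and at least 1.17-fold in het cells. Zfp943, among the brightest of the 135 genes with a mean log2 signal of 9.03, fell at 4 h by 0.55 in PM, 0.56 in KO and 0.63 in het cells on the log2 scale. With median scaling the call of Zfp943 in het cells was lost.

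Zfp202, a SCAN and KRAB gene whose human counterpart represses genes of lipid transport, also rose at 4 h and did not pass at 1 h. It read 6.93, 6.25, 7.06 and 6.90 in PM cells at 4 h, against 4.70, 4.94, 5.11 and 4.61 at 0 h. In KO cells it read 6.20, 6.18, 6.84 and 6.70 at 4 h, against 4.91, 4.84, 5.01 and 4.99 at 0 h, and in het cells 6.95, 6.57, 6.93 and 7.32 against 4.48, 4.74, 5.16 and 5.34. The rise was 1.94 in PM, 1.54 in KO and 2.01 in het cells (adjusted p at most 1.17e-07), 3.83-fold, 2.91-fold and 4.03-fold over signals detected on 2 of 4 PM, 4 of 4 KO and 3 of 4 het arrays at 0 h. Zfp397, a SCAN gene, rose by 1.06, 0.83 and 1.53, and Zfp296, a factor known to support reprogramming to pluripotency, by 0.95, 1.01 and 1.55 in PM, KO and het cells. A second probe of Zfp296 rose by 1.95 in het cells.

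The largest fall at 4 h in PM and het cells was that of Zfp362, a close relative of Zfp384, and in KO cells that of Zfp658. It read 7.68, 7.88, 7.89 and 7.93 in PM cells at 4 h, against 9.40, 9.47, 9.65 and 9.18 at 0 h. KO cells read 8.19, 8.09, 7.78 and 7.47 at 4 h, against 9.27, 9.31, 9.26 and 8.90 at 0 h. Het cells read 7.57, 7.61, 7.46 and 7.08 at 4 h, against 9.47, 9.52, 9.25 and 9.28 at 0 h. All arrays of 4 h lay below all arrays of 0 h in each genotype. It fell by 1.58 in PM, 1.30 in KO and 1.95 in het cells on the log2 scale (SE 0.20 each, adjusted p at most 2.11e-06).

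Zfp658 fell in het cells to 4.56, 4.90, 4.81 and 4.86 at 4 h, against 5.94, 5.87, 6.63 and 6.42 at 0 h, by 1.43. The same gene fell by 1.71 in KO cells and was at least 2.32-fold lower in PM cells, where no array of 4 h was detected. Zfp810, a KRAB gene, changed by -0.91 in PM, -0.69 in KO and -1.49 in het cells, and Zfp710 by -1.08, -0.85 and -1.24, past the threshold in each. Zfp292, a large zinc finger factor, fell by 1.17 in KO cells and 1.48 in het cells. In PM cells its -0.76 did not pass (adjusted p = 0.0531). There 1 of the unstimulated arrays, replicate 4, read 7.61, beside 9.33, 9.09 and 9.29 on the others. With median scaling the call in KO cells was lost (adjusted p = 0.127). Zfp12, a KRAB gene, is 1 of 12 genes that fell in all 6 comparisons, by 1.01 in PM, 1.05 in KO and 0.95 in het cells at 4 h, with SEs of 0.12.

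In bulk RNA, fewer cells of a type and less RNA per cell cannot be told apart, and markers of other cells moved with stimulation. Of 7 myeloid markers 5 were tested, and 4 fell at 4 h in each genotype. The summed signal (linear scale) of the 5 ranged from 234 to 911 in PM cells at 4 h, against 1542 to 3668 at 0 h, from 275 to 1122 in KO cells, against 3005 to 4535, and from 245 to 1005 in het cells, against 3361 to 3886. At 1 h 0, 2 and 1 of the 5 fell past the threshold in PM, KO and het cells. Their median change was -0.93, -1.31 and -1.02, with 4 of the 5 below 0 in each genotype. The sum at 1 h ranged from 707 to 2154 in PM, 603 to 2174 in KO and 1164 to 2209 in het cells. In KO and het cells it lay below every array of 0 h. S100a8, S100a9 and Fcer1g were detected on all 36 arrays, Lyz2 on 34, Cd14 on 17 and Itgam on 0, and Csf1r has no probe here. Of 7 B cell markers 5 were tested, of which 2, 2 and 3 fell at 4 h and 0 at 1 h in PM, KO and het cells. Their sum ranged from 929 to 2994 in PM cells at 4 h, against 2280 to 6530 at 0 h, from 613 to 2599 in KO cells, against 1848 to 4898, and from 685 to 2915 in het cells, against 2386 to 6598. Cd79a, Cd79b and Cd74 were detected on all 36 arrays, Blnk on 18, Ms4a1 on 13 and Pax5 on 0. Of 7 T cell markers tested 5, 4 and 5 fell at 4 h in PM, KO and het cells, and 2, 2 and 1 rose. Of 2 CD4 markers tested 1 fell at 4 h in each genotype. Cd8b1, of CD8 T cells, fell at 4 h by 1.93 in PM, 1.40 in KO and 1.78 in het cells on the log2 scale, and at 1 h by 0.75 in KO and 0.69 in het cells. The part of these cells in the falls of the Zfp genes was not tested.

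**Figure D4:**
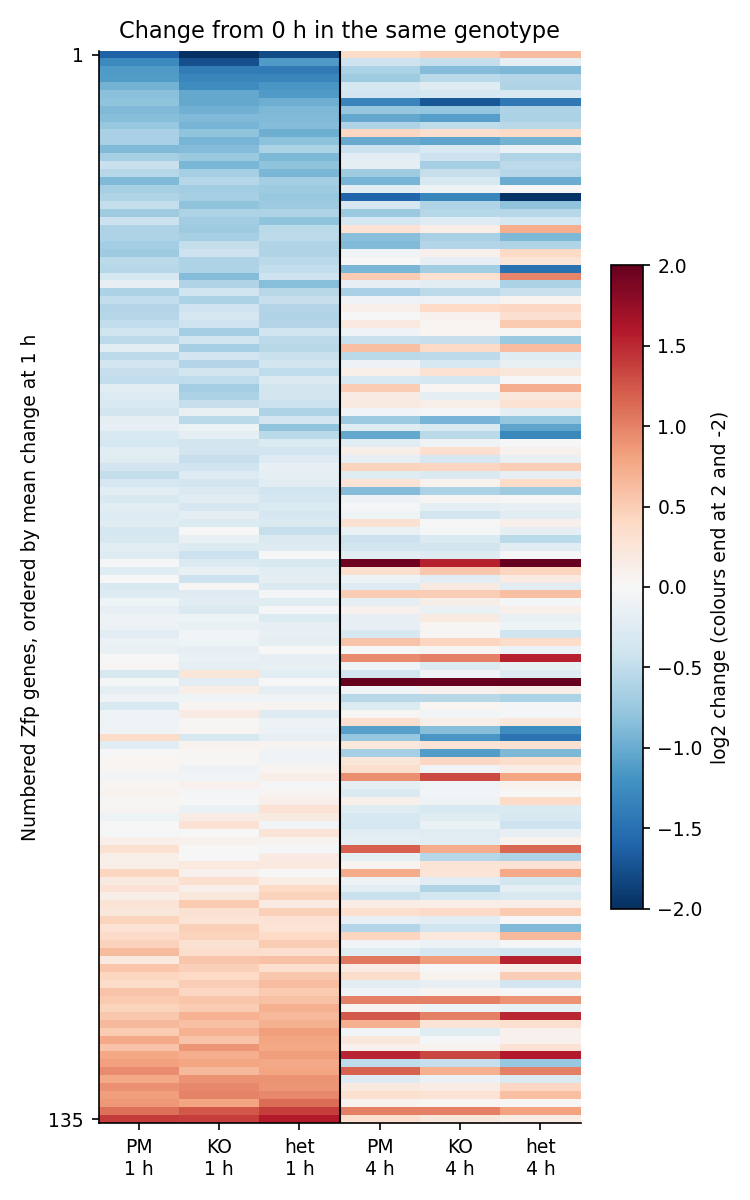
Log2 change of all 135 Zfp genes (rows, ordered by their mean change at 1 h) in PM, KO and het cells at 1 h and 4 h against 0 h of the same genotype, with red for higher and blue for lower. The 3 columns of each time resemble each other, and the order of the rows at 1 h is not kept at 4 h.

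By role, 5 genes tied to the ribosome were listed and 3 were tested, of which 2 rose at 4 h and 1 rose at 1 h in every genotype. Beside them, 24%, 22.2% and 26.9% of all genes rose at 4 h in PM, KO and het cells, and 10.3%, 12.4% and 12.7% at 1 h. Zfp593, whose yeast counterpart escorts the large ribosomal subunit out of the nucleus, read 6.12, 6.52, 6.72 and 6.31 in PM cells at 4 h, against 4.95, 5.12, 5.0 and 4.50 at 0 h. In KO cells it read 6.15, 6.37, 6.28 and 6.49 at 4 h, against 4.94, 4.99, 5.08 and 4.97 at 0 h, and in het cells 6.35, 6.50, 6.53 and 6.46 against 5.04, 5.03, 4.91 and 4.51. The rise was 1.52, 1.33 and 1.59 at 4 h and 0.78, 0.72 and 0.83 at 1 h, and the values of 1 h lay between those of 0 h and 4 h on every array. Zfp598, a ubiquitin ligase at collided ribosomes, rose by 1.20, 0.74 and 1.15 at 4 h. Zfp622, a late factor of the large subunit, changed by 0.05 in PM, 0.28 in KO and 0.28 in het cells at 4 h, without passing.

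All 6 genes listed under RNA binding were tested, and 3 of them rose at 1 h in each genotype: Zfp326, which couples transcription to splicing, Zfp64 and Zfp106. Whether Zfp64 binds RNA was not tested, and its place rests on the list alone. Of all genes 10.3%, 12.4% and 12.7% rose at 1 h in PM, KO and het cells. Zfp106 read 6.13, 6.08, 6.16 and 6.70 in het cells at 4 h, against 4.57, 4.55, 5.01 and 4.87 at 0 h, and rose by 1.23 in PM, 1.00 in KO and 1.51 in het cells. Zfp346, Zfp638 and Zfp207, a spindle factor, passed in none of the 6 comparisons. Of 15 promoter and chromatin factors 9 were tested. Zfp281, which binds GC-rich promoters, rose by 1.01, 1.02 and 0.90 at 4 h, reading 8.96, 8.81, 8.49 and 8.89 on the het arrays, against 7.48, 7.96, 8.14 and 7.95 at 0 h. Zfp131 rose by 0.65, 0.59 and 0.71 at 1 h, and Zfp148, another GC-box factor, fell in het cells by 0.80 at 1 h and 1.05 at 4 h, its changes in PM and KO cells lying between -0.31 and -0.10. Whether the response of Zfp148 differed between genotypes is covered by the tests of the differences, which it did not pass. Zfp263 had group means within 0.25 of each other. With median scaling the calls of Zfp281 at 4 h in KO and het cells were lost.

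Among genes with roles in lymphocytes 5 of 11 were tested. Zfp91, a ubiquitin ligase of the non-canonical NF-kB pathway, rose at 4 h by 1.19 in PM, 0.72 in KO and 1.01 in het cells, the call in het cells being lost with median scaling. Its het arrays read 7.61, 7.74, 7.95 and 7.82 at 4 h, against 6.62, 6.66, 6.89 and 6.92 at 0 h. The PM arrays of replicate 4 read 5.26 at 0 h and 6.21 at 1 h, beside 6.72 to 6.78 and 7.64 to 7.77 on the others. At 1 h its rise of 0.78 in het cells (adjusted p = 0.0322) was lost in 6 of 8 fits without 1 array, those without het replicates 1 or 2 at 0 h or any het array at 1 h, with adjusted p from 0.0523 to 0.0779, and held over replicates 1 to 3. Zfp157 fell by 0.64 and Zfp318, which governs IgD splicing in B cells, by 0.41 in het cells at 4 h. Both calls were lost without het replicate 4 at 0 h (adjusted p = 0.0911 and 0.175) or without het replicates 2 or 3 at 4 h. That of Zfp318 was also lost without het replicate 3 at 0 h or 4 at 4 h. Median scaling and a fit of only the arrays compared ended both calls too. That of Zfp318 was further lost with the authors' processed table, without the filter on dim probes, with every probe tested and over replicates 1 to 3 (adjusted p from 0.0509 to 0.171). Zfp335 and Zfp608, which act in thymocytes, did not pass.

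In genome maintenance, SUMO and ubiquitin 3 of 5 were tested. Zfp451, a SUMO ligase, read 5.42, 5.44, 5.29 and 5.72 in het cells at 1 h, against 6.14, 5.83, 6.23 and 5.89 at 0 h, and 6.52, 6.85, 6.88 and 6.30 at 4 h. It fell by 0.66 in KO and 0.56 in het cells at 1 h and rose by 0.60 in PM and 0.61 in het cells at 4 h, the call in het cells at 4 h being lost with median scaling. Zfp365 fell by 0.85, 0.88 and 0.88 at 1 h and by 1.03, 1.10 and 0.63 at 4 h, the call in het cells at 4 h being lost without het replicates 1 or 4 at 0 h or 2 or 3 at 4 h (adjusted p from 0.0558 to 0.134), without the filter on dim probes (0.0713) or over replicates 1 to 3 (0.102). Of 6 silencers of retroelements and imprints 1 was tested. Zfp809, which directs TRIM28 to retroviral sequence, fell by 0.60 in KO cells at 4 h (adjusted p = 0.00597) and changed by -0.21 in PM and -0.17 in het cells, without passing.

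The partners through which KRAB proteins silence were measured beside them, 15 of 26 listed. At 4 h 7 rose and 3 fell in PM cells, 4 rose and 2 fell in KO cells, and 6 rose and 3 fell in het cells, with a median change of 0.44, 0.30 and 0.41. Risen partners were 46.7%, 26.7% and 40% of the 15, beside 24%, 22.2% and 26.9% of all genes, and fallen partners 20%, 13.3% and 20%, beside 27.1%, 24% and 28.3%. At 1 h 1 rose in each genotype, the SETDB1 partner Atf7ip, and 1, 2 and 0 fell. Trim28 rose at 4 h by 0.90 in PM, 0.68 in KO and 0.91 in het cells (SE 0.20 each, adjusted p at most 0.00513). Morc2a, a chromatin-compacting ATPase of the same pathway, rose by 1.00, 0.99 and 1.40, and Smarcad1, a remodeller that binds TRIM28, by 0.79, 0.58 and 1.17. The deacetylase Hdac1 fell by 0.60, 0.71 and 1.05, and the maintenance methyltransferase Dnmt1 by 0.64, 0.53 and 0.74.

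Other zinc finger families are given as counts in PM, KO and het cells, to be read against the shares of all genes above. Of 20 Zbtb genes 5, 5 and 7 fell and 2, 4 and 2 rose at 1 h, and 5, 5 and 5 fell and 3, 4 and 4 rose at 4 h. The Zbtb genes that fell at 1 h were 25%, 25% and 35% of those tested, beside 23%, 28.9% and 26.7% of the Zfp genes and 13.1%, 15.7% and 15.5% of all genes. Of 9 Zscan and Zkscan genes 2, 1 and 2 fell and 0, 0 and 1 rose at 1 h, and 4, 3 and 3 fell and 0 rose at 4 h. Of 9 Klf genes 1, 1 and 2 fell and 3, 2 and 2 rose at 1 h, and 4, 4 and 5 fell and 2, 1 and 1 rose at 4 h. Of 11 Zc3h genes 2, 1 and 1 fell and 1, 2 and 3 rose at 1 h, and 2, 2 and 2 fell and 3, 2 and 4 rose at 4 h. Of 10 Zfp genes named with a letter 0 passed at 1 h and 1 fell at 4 h in each genotype. Of 3 Ikzf genes 1 fell at 1 h in each genotype and 0, 1 and 0 rose, and at 4 h 0 fell and 0, 1 and 0 rose.

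Position in the genome was read from the RefSeq gene table (assembly GRCm38.p6). Of the 135 genes 60 lie in runs of at least 3 numbered Zfp genes with no gap over 200000 bases, and 75 do not. The genes in runs were dimmer, with a median log2 signal of 5.79, against 6.36 outside runs. At 1 h 26.7% of those in runs fell and 8.33% rose in PM cells, 35% and 8.33% in KO cells and 28.3% and 10% in het cells. Outside runs 20% fell and 16% rose in PM cells, 24% and 14.7% in KO cells and 25.3% and 17.3% in het cells. At 4 h 23.3% of those in runs fell and 8.33% rose in PM cells, 26.7% and 6.67% in KO cells and 21.7% and 13.3% in het cells. Outside runs 18.7% fell and 16% rose at 4 h in PM cells, 17.3% and 10.7% in KO cells and 26.7% and 21.3% in het cells, so in het cells the fallen share was lower in runs. The largest run by kept genes held Zfp553, Zfp629, Zfp688, Zfp689, Zfp747, Zfp764 and Zfp771, whose changes in het cells at 1 h ran between -0.90 and 0.96, with 1 that fell and 1 that rose. These genes were named after their values were seen.

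The comparison of genotypes asked whether the Zfp genes need MALT1 or its protease. In 8 of the 9 comparisons between genotypes 0 Zfp genes passed by limma. At 0 h, with 2, 2 and 4 Zfp genes whose groups did not overlap in PM against het, KO against het and PM against KO (2.28%, 1.61% and 2.29% of all genes), 3, 5 and 4 reached an unadjusted p under 0.05, and of all genes 0.0791%, 0.0527% and 0.0659% passed. At 1 h 6, 3 and 6 Zfp genes reached an unadjusted p under 0.05, and of all genes 0.211%, 0.0527% and 0.0132% passed. At 4 h PM cells differed from het cells in 0 Zfp genes (7 at an unadjusted p under 0.05), where 2.83% of all genes passed, and from KO cells in 0 (5 unadjusted), where 2.81% did. These unadjusted counts of Zfp genes and the adjusted shares of all genes rest on unlike thresholds and cannot be set against each other. No share of all genes at an unadjusted p under 0.05 is given. The changes of PM against het at 4 h ranged from -0.56 to 0.60.

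KO cells at 4 h differed from het cells in 4 of the 135 genes, 1 lower and 3 higher, while 8.74% of all genes passed, 3.59% lower and 5.15% higher. Groups did not overlap for 10 Zfp genes, beside 13.4% of all genes. At an unadjusted p under 0.05 there were 18 Zfp genes, a count for which no share of all genes is given. With replicates 1 to 3 alone, 6 Zfp genes passed over the 9 genotype comparisons. That count, 4 over all arrays, was 15 with array weights and 2 without replicate 1 of het or of KO cells at 4 h. Shares of all genes are not given for these alternative counts. Zfp296 read 5.45, 5.37, 5.26 and 6.21 in KO cells, against 6.27, 6.04, 6.54 and 6.68 in het cells. It was lower by 0.81 (SE 0.20, adjusted p = 0.00839), 1 KO array reaching into the het range. Zfp948 read 5.58, 5.50, 5.36 and 6.23 in KO cells, against 4.66, 5.17, 5.08 and 5.20 in het cells, 0.64 higher without overlap (adjusted p = 0.00372). Zfp3 read 6.13, 6.17, 6.28 and 6.29 in KO cells, against 5.72, 5.65, 5.31 and 5.63 in het cells, 0.64 higher without overlap (adjusted p = 0.0409). Zfp810 read 5.71, 5.0, 5.17 and 5.47 in KO cells, against 4.22, 5.07, 4.84 and 4.40 in het cells, 0.71 higher with overlap (adjusted p = 0.0129).

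**Figure D5:**
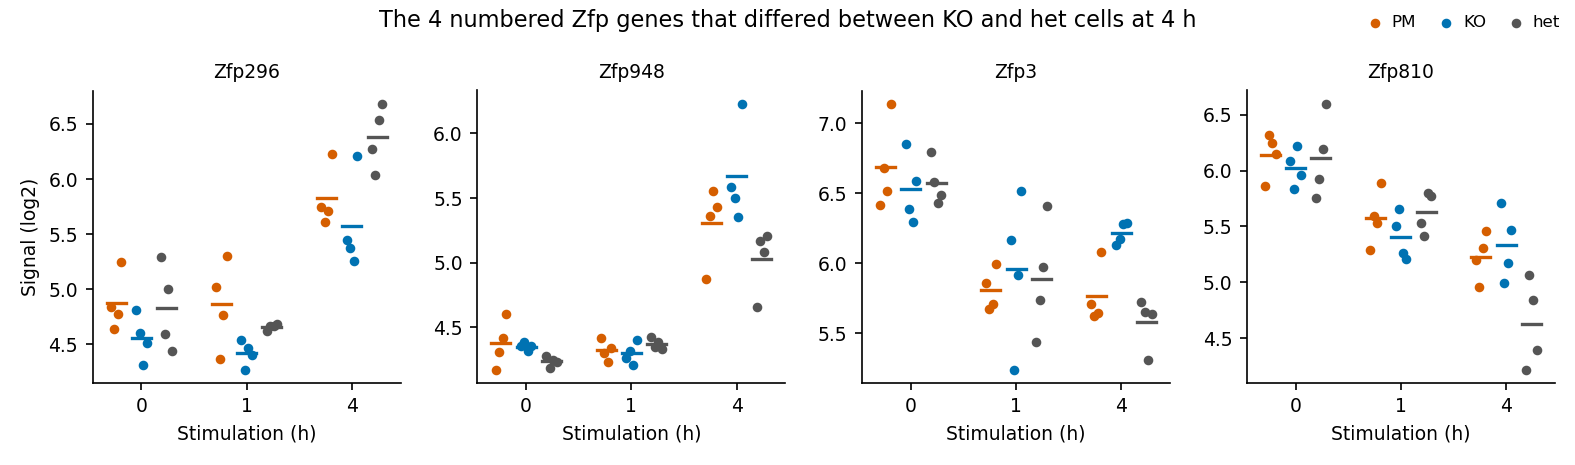
Log2 signal on every array of Zfp296, Zfp948, Zfp3 and Zfp810 at 0, 1 and 4 h in PM, KO and het cells, each point 1 array and each bar the mean of 4, with a scale per panel that does not start at 0. At 4 h the KO arrays lie below most het arrays for Zfp296 and above all of them for Zfp948 and Zfp3.

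These 4 calls varied in how firmly they held. Zfp3 lost its call in all 8 fits without 1 array of either group (adjusted p from 0.0519 to 0.149), Zfp810 without het replicates 1 or 4 or KO replicate 1 (adjusted p from 0.0563 to 0.0739), and Zfp296 and Zfp948 in 0 of 8. When the fit held no other groups, Zfp3 alone of the 4 passed, and with median scaling Zfp296 alone. Over all other settings, fits without 1 array apart, Zfp296 lost its call in 1, Zfp948 in 2, Zfp3 in 3 and Zfp810 in 4. Over replicates 1 to 3 Zfp810 no longer passed (adjusted p = 0.096). The arrays of these groups deviate together by replicate number, and with the number as a block 9 genes passed. The block added Zfp202 (-0.46, adjusted p = 0.0493), Zfp281 (0.49, adjusted p = 0.0335), Zfp362 (0.45, adjusted p = 0.0443), Zfp397 (-0.57, adjusted p = 0.0106) and Zfp770 (-0.58, adjusted p = 0.0249).

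Tested directly, the response to stimulation differed between genotypes for 0 of the 135 genes in each of the 6 comparisons. Of all genes 0% passed in the 3 comparisons at 1 h, and 0.132%, 1.99% and 0.369% at 4 h in PM against het, KO against het and PM against KO. At an unadjusted p under 0.05 there were 1, 1 and 0 Zfp genes at 1 h and 3, 8 and 2 at 4 h, without a share of all genes beside them. With the replicate block Zfp106 passed in KO against het at 4 h (-0.51, adjusted p = 0.0411, against 0.546 without the block). The difference of responses in KO against het at 4 h ranged from -0.70 to 0.80 over the 135 genes. The changes had the same sign in all 3 genotypes for 112 of 135 genes at 1 h and 108 at 4 h. As a description over 135 genes, each genotype with its own unstimulated arrays, Pearson's r of the changes was 0.942 between PM and het, 0.939 between KO and het and 0.927 between PM and KO at 1 h, and 0.938, 0.907 and 0.933 at 4 h. Neither the counts of shared sign nor r are given for all genes. Whether this likeness is particular to the Zfp genes was not tested.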

How the data were processed

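The 36 samples were read on bead arrays, and GenomeStudio 2011.1 is named in the submitters' processing notes. Groups and replicate numbers follow the labels. Each replicate number stands for a code in the sample titles that arrays of every genotype and time share. What the code stands for is not stated. The main fit did not use it, and a fit with it as a block is given as an alternative. Values are linear, non-normalized signal intensities, per the file headers, with a detection p-value deposited for each. The authors deposited processed intensities too, of unstated scaling, which served as an alternative.

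Starting from the deposited signals, background was modelled from the detection p-values (neqc of limma 3.58.1 under R 4.3.3, with statmod 1.5.0), followed by quantile normalization and log2 with an added offset of 16, which compresses changes of dim genes. Of 25697 probes 10961 were kept (detection p under 0.01 on 4 or more arrays), and the brightest probe stood for each of 7585 genes. A limma model with a mean for each group was fitted across all arrays and genes, with 27 residual degrees of freedom. Each of 24 comparisons was adjusted on its own by the Benjamini-Hochberg method, with a threshold of 0.05. Where a group had no detected array, folds are lower bounds. The number of arrays limits the precision. The model was tested on simulated data.

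The genes and the lists were chosen with earlier results of these data known. Genes named are the 10 largest rises and falls in het cells at each time, the 5 largest in PM and KO cells (past the threshold, without overlap), all that passed between genotypes, the 5 brightest and the kept members of role lists. Others are said to be chosen after their values were seen. Protein sequences were not used here, and promoters are printed instead. The comparison of 4 h with 1 h was added after the others. Same-numbered arrays, centred on their groups, correlated above 0.1 in every pair in 12 of 18 comparisons, among them KO against het at 4 h, where the number was taken to pair them.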

Additional observations from a re-analysis of the deposited data

Results flagged for a closer look

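Each named gene was checked in each group of 4 arrays for 1 array far from the other 3. Of 513 such sets 26 held one, where chance gives about 1 in 20, and 15 of the 26 were arrays of replicate 4, beside 4, 4 and 3 of replicates 1 to 3. The values are log2 signals. In PM cells at 0 h these were 5.26 for Zfp91 in replicate 4, 7.61 for Zfp292 in replicate 4 and 5.22 for Zfp410 in replicate 4. In PM cells at 1 h these were 8.40 for Zfp747 in replicate 4, 6.21 for Zfp91 in replicate 4, 5.36 for Zfp94 in replicate 1, 5.46 for Zfp658 in replicate 4, 7.04 for Zfp809 in replicate 1 and 6.53 for Zfp148 in replicate 4. In PM cells at 4 h these were 6.81 for Zfp94 in replicate 2, 6.50 for Zfp82 in replicate 4, 4.36 for Zfp235 in replicate 2 and 6.18 for Zfp809 in replicate 4. In KO cells at 0 h these were 7.15 for Zfp326 in replicate 4, 8.90 for Zfp362 in replicate 4 and 8.52 for Zfp277 in replicate 3. In KO cells at 1 h these were 5.05 for Zfp202 in replicate 4, 9.21 for Zfp362 in replicate 2 and 7.0 for Zfp148 in replicate 2. In KO cells at 4 h these were 7.38 for Zfp292 in replicate 4, 5.34 for Zfp809 in replicate 3 and 7.83 for Zfp207 in replicate 1. In het cells at 0 h these were 6.76 for Zfp60 in replicate 1 and 6.52 for Zfp608 in replicate 3. In het cells at 4 h these were 8.15 for Zfp747 in replicate 4 and 6.70 for Zfp106 in replicate 4.

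Zfp91 in PM cells and Zfp292 in PM and KO cells were dimmer on the replicate 4 arrays by more than 1 on the log2 scale at some of the times. Why these arrays lie apart was not tested.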

How the results depend on the processing

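With median scaling, in PM, KO and het cells, 16, 27 and 18 Zfp genes fell and 2, 3 and 3 rose at 1 h, 18, 11 and 26 fell and 10, 7 and 10 rose at 4 h, and between 1 and 4 h 3, 4 and 10 fell and 15, 15 and 16 rose. Between genotypes 1 gene passed with median scaling and 1 with only the arrays compared in the fit, 15 with array weights and 9 with the replicate block, beside 4. With the block 1 gene passed in the differences of responses, beside 0, and 20 rose in KO cells at 4 h, beside 12. Same-numbered KO arrays of 0 and 4 h correlated at -0.07 to 0.52, not all above 0.1, beside a median of -0.10 for different numbers. At 1 h 43.7%, 48.9% and 49.6% of the Zfp genes passed with the block in PM, KO and het cells. Of all genes 32.2%, 38.2% and 37.6% did. At 4 h the shares were 40%, 39.3% and 51.1% of the Zfp genes, beside 58.5%, 54.5% and 62.6% of all genes. With only the arrays compared 10 rose in PM cells at 1 h, beside 17. The causes were not tested. Leaving out 1 array gave, at 1 h, 25 to 30 fallen and 12 to 19 risen in PM, 29 to 39 and 13 to 18 in KO and 29 to 36 and 15 to 20 in het cells. At 4 h it gave 25 to 29 and 14 to 21 in PM, 25 to 30 and 10 to 15 in KO and 27 to 33 and 20 to 24 in het cells, and between 1 and 4 h 21 to 25 and 29 to 35, 19 to 23 and 27 to 32, and 24 to 30 and 33 to 40. Between genotypes it gave 2 (without replicate 1 of het or of KO at 4 h) to 6, and for responses 0 to 1 (without het replicate 2 at 4 h). Of 1941 alternative values for named genes 0 reversed, 71 lost and 15 gained a call. Genes near background have changes that the offset compresses.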
